A study of Homo sapiens with 12 samples.

Results

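Intraflagellar transport (IFT) and BBSome genes were followed in RCC4 cells, an established line of clear cell renal carcinoma, after knockdown of *MESH1*. The members are all genes in the count files whose symbol is IFT or BBS followed only by digits, together with TTC8, ARL6, BBIP1, TTC21B, WDR19, WDR35, TRAF3IP1, HSPB11, CLUAP1, TTC26, TTC30A and TTC30B, which gave 33 of 23710 genes. No expression value was used to choose them, but the choice was made with earlier results of these data known. All 33 passed the filter on low counts in both comparisons.

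Messenger RNA was sequenced in 12 libraries, 3 per group in each of 2 experiments, from cells that had received 40 pmol of siRNA and were collected at 72 hours. Experiment 1 compared siMESH1-CDS, which targets the coding sequence of *MESH1*, with a non-targeting control, siNT_for_CDS. The titles of these controls name no siRNA, and they were placed here because those of the other controls name siMESH1-7002. Experiment 2 compared siMESH1-7002, which targets the 3′ untranslated region, with siNT_for_7002. The study calls the targeting siRNAs siMESH1#1 and siMESH1#2, and all groups share the RCC4 line, the transfection reagent, the dose and the time.

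IFT trains carry cargo along the microtubules of the cilium. The IFT-B complex, with kinesin-2, moves cargo towards the tip, and the IFT-A complex, with dynein-2, serves the return and the entry of membrane proteins. The BBSome rides on these trains and sorts membrane receptors in and out of the cilium, and mutations in its subunits cause Bardet-Biedl syndrome. Cells in culture assemble a primary cilium when they leave the cell cycle and take it down before division. The VHL protein, which RCC4 cells lack in functional form, is known to support primary cilia in kidney cells. The libraries measure messenger RNA, and no cilium was scored. In these bulk samples fewer cells of a type and less RNA per cell cannot be told apart.

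Reads in genes ranged from 34063155 to 49134129 per library in experiment 1 and from 24787804 to 31651125 in experiment 2, so 1 CPM (counts scaled to library size by TMM, as edgeR defines it) stood for 25.1 to 53.2 reads. HDDC3, the gene that encodes MESH1, was at 7.51 ± 0.909 CPM (SD, n = 3) in siNT_for_CDS and 0.158 ± 0.158 in siMESH1-CDS, and at 13.2 ± 0.559 in siNT_for_7002 and 1.39 ± 0.296 in siMESH1-7002. Thus 2.10% and 10.5% of it was left (edgeR adjusted p = 0.00174 and 2.51e-12). With siMESH1-CDS this rests on 0 to 11 reads per library, and its log2 fold change of −5.57 was −6.66 to −4.93 when libraries were left out 1 at a time (−6.66 without siMESH1-CDS replicate 3 and −4.93 without replicate 2) and −3.70 with the correction for GC content given further on. Replicates differed far more in experiment 1, with a biological coefficient of variation of 0.299 against 0.0490 in experiment 2, and the siMESH1-CDS libraries stood apart from each other the most. Reads with no gene feature made up 14.7% to 15.5% of the total in siNT_for_CDS and 18.4% to 20.8% in siMESH1-CDS, which did not overlap, and 10.0% to 12.2% in experiment 2. The part of this difference in the changes with siMESH1-CDS was not tested. Of 6 markers of other cell types, PTPRC, CD3E, PECAM1, CDH5 and ALB never exceeded 11 reads in a library. The other marker, EPCAM, was at 10.6 to 32.2 CPM. Of the 8 clear cell carcinoma markers VIM, EPAS1 and PAX8 were at 31.0 CPM or more in all libraries. The lowest values of KRT8, PAX2, CA9, KRT18 and NDUFA4L2 were 8.04, 2.89, 1.53, 0.284 and 0.0775 CPM.

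With siMESH1-CDS most transcripts of the transport machinery rose. Of the 33 genes, 23 were called higher and 4 lower by edgeR's quasi-likelihood test (adjusted p under 0.05, Benjamini-Hochberg over all 13395 genes tested), and 6 were not called. Among all genes tested, 36.9% were called higher and 37.2% lower. The median log2 fold change was 0.97 over the members and −0.05 over all genes. The largest increases belonged to BBS12, a chaperonin-like factor for BBSome assembly (2.23 ± 0.15 on the log2 scale, SE), IFT74, which with IFT81 binds tubulin cargo (2.19 ± 0.25), and IFT57, a peripheral IFT-B subunit (2.01 ± 0.16). After the correction for GC content described with the GC content of the transcripts, the largest were BBS5 (3.07), HSPB11 (1.85) and BBS12 (1.51). The 4 genes called lower were IFT140 (−1.60), IFT122 (−1.14) and IFT43 (−0.84) of the IFT-A complex and TRAF3IP1 (−0.69), a microtubule-binding subunit of IFT-B. Of these calls only that of TRAF3IP1 stood after the correction, where IFT140 was at 1.27 and IFT122 and IFT43 at −0.25, not called. In CPM the 2 groups of libraries did not overlap for 32 of the 33, against 82.7% of all genes tested. The count of 4 lower genes rested on single libraries: it was 2 without any 1 of the siNT_for_CDS libraries or without siMESH1-CDS replicate 1, and 7 without siMESH1-CDS replicate 2.

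Libraries of experiment 1 ran on several lanes, of which lanes 4 and 6 hold a library of each group. Within lane 4 all 23 genes called higher were higher in the siMESH1-CDS library and all 4 called lower were lower, with a median log2 difference of 0.84 over the members against −0.03 over all genes. Within lane 6 the same held, with 1.07 against −0.04. These are differences between single libraries and carry no test. The genes were called from these same libraries, and the groups of the called genes did not overlap in CPM. Their directions within a lane were therefore fixed in advance and add no support to the calls.

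With siMESH1-7002 no member was called lower, and the median change was smaller. Here 19 of the 33 were called higher by edgeR, 0 lower and 14 not called, where 26.6% of the 13568 genes tested were called higher and 26.7% lower. The count of 0 lower genes was also 0 with DESeq2, 2 with the GC correction, 2 with GC and length correction and 1 without siNT_for_7002 replicate 3. No member had both a negative change and an unadjusted p under 0.05 in edgeR. The median log2 fold change was 0.24 over the members and 0.01 over all genes. The largest increases were those of TTC30B (0.54 ± 0.08) and TTC30A (0.50 ± 0.05), paralogous IFT-B core subunits, and of TTC8 (0.47 ± 0.08), a BBSome subunit. Only 2 members, TTC30A and TTC30B, were called with a log2 fold change also required to exceed about 0.5. In a single model of all 4 groups, which applies the wider spread of experiment 1 to experiment 2, 7 were called higher. The groups did not overlap for 23 of the 33, against 59.6% of genes tested.

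With both siRNAs 16 of the 33 were called higher (48.5%), where 15.5% of the 12824 genes tested in both comparisons were called higher in both. The experiments share no library. In the main fits no member was called in opposite directions, where 1485 of the 12824 genes were. This depended on the fit for IFT172, which was called higher with siMESH1-7002. With siMESH1-CDS it was called lower in 7 of 15 alternative fits. These included DESeq2 (−1.01, adjusted p = 0.0155) and edgeR with RLE factors (−1.01, adjusted p = 0.0399). After the GC correction IFT172 was at −0.43 with siMESH1-CDS, not called.

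**Figure D1:**
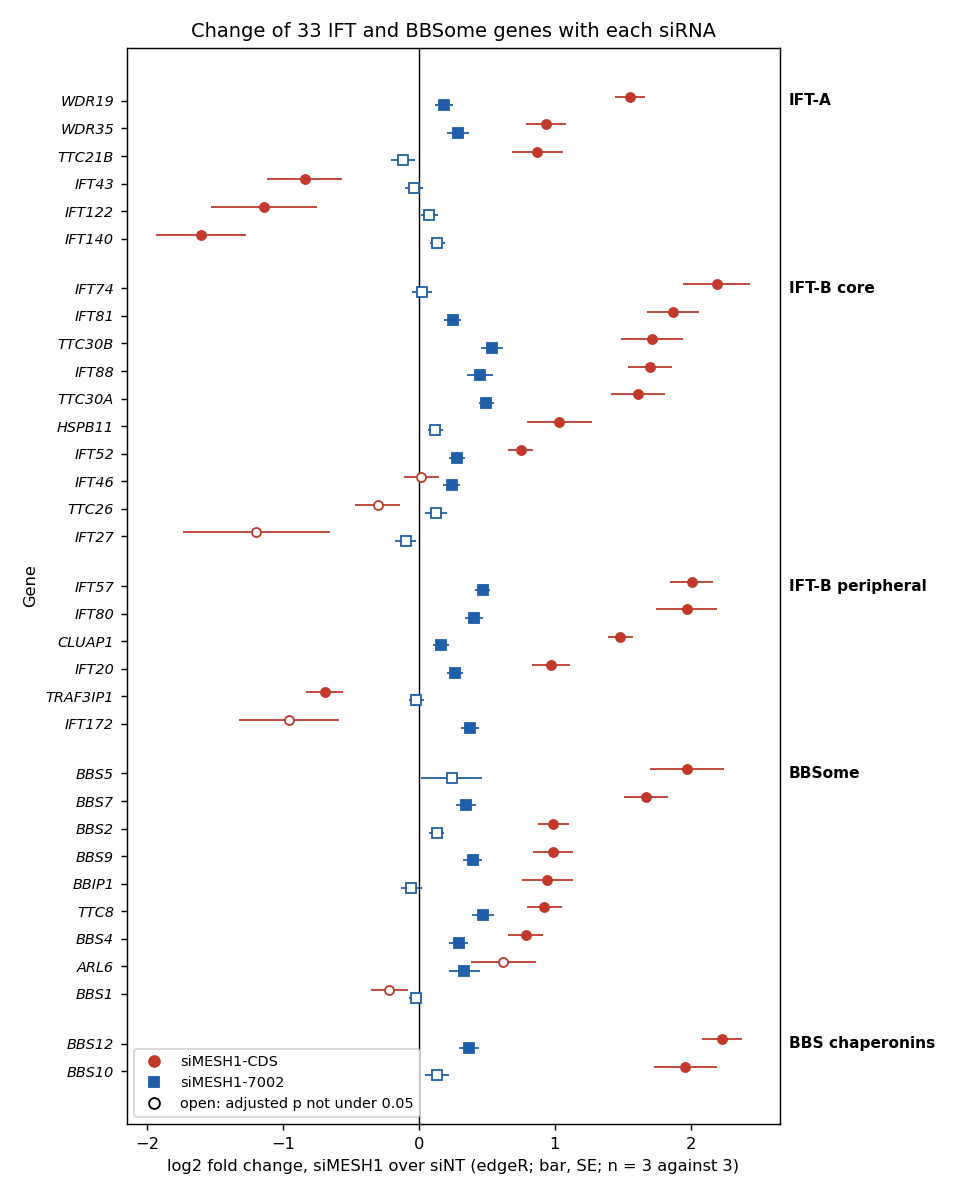
Log2 fold change over siNT (x axis) of each of the 33 genes (y axis), by role, with siMESH1-CDS (red circles) and siMESH1-7002 (blue squares). Bars are the SE of the edgeR fit with 3 libraries against 3, and open symbols did not pass an adjusted p of 0.05. Red points, which are before any correction for GC content, reach from −1.60 for IFT140 (1.27 after it) to 2.23 for BBS12, and blue points from −0.12 for TTC21B to 0.54 for TTC30B.

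The 6 IFT-A genes divided with siMESH1-CDS into 3 called higher and 3 called lower, and 2 of them, WDR35 and WDR19, were higher with both siRNAs. This split was not seen after the GC correction, with 2 higher and none lower. WDR35 was at 43.6, 47.1 and 46.7 CPM in siNT_for_CDS and at 84.5, 103 and 73.3 in siMESH1-CDS, and at 28.0, 28.7 and 36.5 in siNT_for_7002 and 39.2, 36.9 and 38.2 in siMESH1-7002. All siMESH1 libraries lay above their controls, although in experiment 2 replicate 3 of siNT_for_7002 reached nearly the siMESH1-7002 values. Its log2 fold changes were 0.94 ± 0.15 and 0.29 ± 0.08 (edgeR adjusted p = 0.00215 and 0.00691), and the first was 0.13 and not called after the GC correction. WDR19, which sits in the core of IFT-A, was at 34.1, 41.2 and 36.4 CPM in siNT_for_CDS and at 108, 115 and 102 in siMESH1-CDS, and at 30.8, 30.3 and 34.1 in siNT_for_7002 and 35.4, 34.3 and 39.3 in siMESH1-7002. The groups were far apart in experiment 1 and close in experiment 2, with changes of 1.55 ± 0.11 and 0.19 ± 0.07 (adjusted p = 0.000284 and 0.0273).

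TTC21B was called higher with siMESH1-CDS (0.87, and 0.06 after the GC correction, not called) and was at −0.12 with siMESH1-7002, not called. The 3 genes that fell with siMESH1-CDS were not called with siMESH1-7002, where IFT140 was at 0.14, IFT122 at 0.08 and IFT43 at −0.04. IFT122, chosen here after its values were seen, was at 30.7, 33.9 and 30.9 CPM in siNT_for_CDS and at 13.5, 7.34 and 22.2 in siMESH1-CDS, so the siMESH1-CDS libraries differed among themselves by more than they did for WDR19. IFT43 overlaps TTLL5 on the same strand, so its counts are uncertain.

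Of the 10 core genes, 7 were higher and none lower with siMESH1-CDS, and 6 were higher and none lower with siMESH1-7002. IFT88, which is required for assembly of cilia and whose mouse mutant has polycystic kidneys, was at 21.2, 20.6 and 23.0 CPM in siNT_for_CDS and at 67.5, 83.8 and 58.1 in siMESH1-CDS. In experiment 2 it was at 10.6, 9.21 and 12.4 CPM in siNT_for_7002 and at 14.03, 15 and 15.3 in siMESH1-7002. Groups were separate in both experiments. IFT88 rose by 1.70 ± 0.16 on the log2 scale (3.25-fold, adjusted p = 0.000494) and by 0.45 ± 0.09 (1.36-fold, adjusted p = 0.000743).

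TTC30A was at 21.9, 23.95 and 22.4 CPM in siNT_for_CDS and at 66.3, 87.5 and 53.4 in siMESH1-CDS, and at 39.3, 39.6 and 40.8 in siNT_for_7002 and 54.5, 57.3 and 58.0 in siMESH1-7002. TTC30B was at 4.04, 4.98 and 5.57 CPM in siNT_for_CDS and at 14.5, 19.4 and 13.7 in siMESH1-CDS, and at 11.1, 10.1 and 11.3 in siNT_for_7002 and 15.8, 16.3 and 15.4 in siMESH1-7002. All siMESH1 libraries lay above their controls, and the paralogs rose by 1.61 and 1.72 with siMESH1-CDS and by 0.50 and 0.54 with siMESH1-7002. Their coding sequences are nearly identical and reads may have been split or lost between them. IFT52, which links subunits of the core, was at 38.3, 41.0 and 41.0 CPM in siNT_for_CDS and at 65.1, 66.8 and 68.7 in siMESH1-CDS, and at 32.8, 36.5 and 37.2 in siNT_for_7002 and 43.8, 43.6 and 42.8 in siMESH1-7002. Its libraries were tight within groups, and it rose by 0.75 ± 0.09 and 0.28 ± 0.06.

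The tubulin-binding partners IFT81 and IFT74 were both among the genes called higher with siMESH1-CDS. IFT81 rose by 1.87 and 0.25, whereas IFT74 rose by 2.19 with siMESH1-CDS and was at 0.02 with siMESH1-7002, not called. HSPB11 rose by 1.03 with siMESH1-CDS and was at 0.12, not called. Its small GTPase partner IFT27 was at −1.20 and −0.10, not called in either, and at 1.20 and called higher with siMESH1-CDS after the GC correction. IFT46 was at 0.02 with siMESH1-CDS, not called, and rose by 0.24 with siMESH1-7002. TTC26 was at −0.30 and 0.13, not called in either.

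Of the 6 peripheral genes, 4 (IFT57, IFT80, IFT20 and CLUAP1) were higher with both siRNAs. IFT57 was at 35.3, 37.6 and 35.4 CPM in siNT_for_CDS and at 141, 172 and 118 in siMESH1-CDS, and at 42.7, 44.9 and 47.4 in siNT_for_7002 and 63.3, 62.7 and 61.9 in siMESH1-7002. It rose by 2.01 ± 0.16 and by 0.47 ± 0.05 (adjusted p = 0.000317 and 1.68e-06). IFT80, mutated in skeletal ciliopathies, was at 51.0, 53.4 and 51.2 CPM in siNT_for_CDS and at 196, 264 and 145 in siMESH1-CDS, and at 39.9, 40.7 and 48.5 in siNT_for_7002 and 54.2, 59.1 and 58.7 in siMESH1-7002. Both genes were separate between groups in each experiment, and IFT80 rose by 1.97 ± 0.22 and 0.41 ± 0.07.

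IFT20, the subunit also found at the Golgi, was at 15.1, 16.9 and 13.9 CPM in siNT_for_CDS and at 29.7, 27.9 and 31.7 in siMESH1-CDS, and at 25.9, 26.4 and 25.6 in siNT_for_7002 and 31.5, 31.7 and 30.9 in siMESH1-7002. CLUAP1 was at 24.9, 24.8 and 24.7 CPM in siNT_for_CDS and at 66.3, 68.1 and 72.1 in siMESH1-CDS, and at 40.1, 38.8 and 43.3 in siNT_for_7002 and 47.1, 45.3 and 45.2 in siMESH1-7002. Groups did not overlap for either gene. The changes were 0.97 and 0.26 for IFT20 and 1.48 and 0.16 for CLUAP1. IFT172 stood at −0.95 with siMESH1-CDS (adjusted p = 0.0556) and rose by 0.38 with siMESH1-7002. TRAF3IP1 fell by 0.69 with siMESH1-CDS and was at −0.02 with siMESH1-7002, not called.

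Of 8 BBSome subunits and ARL6, the small GTPase that recruits the coat to membranes, 7 were higher and none lower with siMESH1-CDS, and 5 were higher and none lower with siMESH1-7002. BBS4, a subunit that joins the coat late in assembly, was at 22.8, 24.3 and 24.9 CPM in siNT_for_CDS and at 40.1, 37.2 and 46.0 in siMESH1-CDS. In experiment 2 it was at 16.4, 15.5 and 17.8 CPM in siNT_for_7002 and at 20.6, 20.3 and 20.4 in siMESH1-7002. Every siMESH1 library was above its controls, and BBS4 rose by 0.79 ± 0.13 and 0.29 ± 0.07 (adjusted p = 0.00246 and 0.00226).

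TTC8 was at 18.9, 19.5 and 19.6 CPM in siNT_for_CDS and at 36.7, 39.9 and 32.6 in siMESH1-CDS, and at 10.8, 9.41 and 10.1 in siNT_for_7002 and 13.5, 14.3 and 14.4 in siMESH1-7002. BBS9 was at 14.3, 16.4 and 14.5 CPM in siNT_for_CDS and at 31.0, 31.9 and 26.0 in siMESH1-CDS, and at 17.6, 17.02 and 19.5 in siNT_for_7002 and 23.1, 23.9 and 24.7 in siMESH1-7002. For both genes the groups were separate in each experiment, with changes of 0.92 (0.12 after the GC correction, not called) and 0.47 for TTC8 and of 0.99 and 0.40 for BBS9. BBS7 was at 28.3, 27.7 and 29.5 CPM in siNT_for_CDS and at 88.5, 109 and 73.2 in siMESH1-CDS, and at 15.4, 16.7 and 17.2 in siNT_for_7002 and 19.3, 21.2 and 22.4 in siMESH1-7002. It rose by 1.67 ± 0.16 and 0.35 ± 0.08.

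BBS2, BBS5 and BBIP1 rose with siMESH1-CDS by 0.99, 1.97 and 0.95 (for BBIP1 0.06 after the GC correction, not called), and were at 0.13, 0.24 and −0.06 with siMESH1-7002, not called. BBS5 was the least abundant member, at 1.65 ± 0.0984 CPM in siNT_for_CDS and 6.44 ± 1.84 in siMESH1-CDS. ARL6 was at 0.62 with siMESH1-CDS (adjusted p = 0.0541) and rose by 0.33 with siMESH1-7002 (adjusted p = 0.0209). BBS1, which contacts ARL6, was at −0.22 and −0.02, not called in either, and at 1.37 and called higher with siMESH1-CDS after the GC correction.

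BBS12 and BBS10 encode chaperonin-like proteins that help the BBSome subunits assemble, and both rose with siMESH1-CDS. BBS12 was at 14.8, 15.1 and 14.5 CPM in siNT_for_CDS and at 68.5, 79.6 and 58.7 in siMESH1-CDS, and at 12.3, 12.8 and 13.95 in siNT_for_7002 and 16.7, 17.2 and 16.7 in siMESH1-7002. BBS10 was at 21.8, 23.0 and 20.6 CPM in siNT_for_CDS and at 82.3, 110 and 60.7 in siMESH1-CDS, and at 17.7, 21.6 and 22.7 in siNT_for_7002 and 21.6, 22.2 and 24.5 in siMESH1-7002. The groups of BBS12 were separate in both experiments and it rose by 2.23 ± 0.15 and 0.37 ± 0.07, whereas those of BBS10 overlapped in experiment 2, where its change of 0.13 ± 0.09 was not called beside 1.96 ± 0.23 with siMESH1-CDS. The third factor of this kind, MKKS, has no symbol of the chosen form and is given with the regulators.

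**Figure D2:**
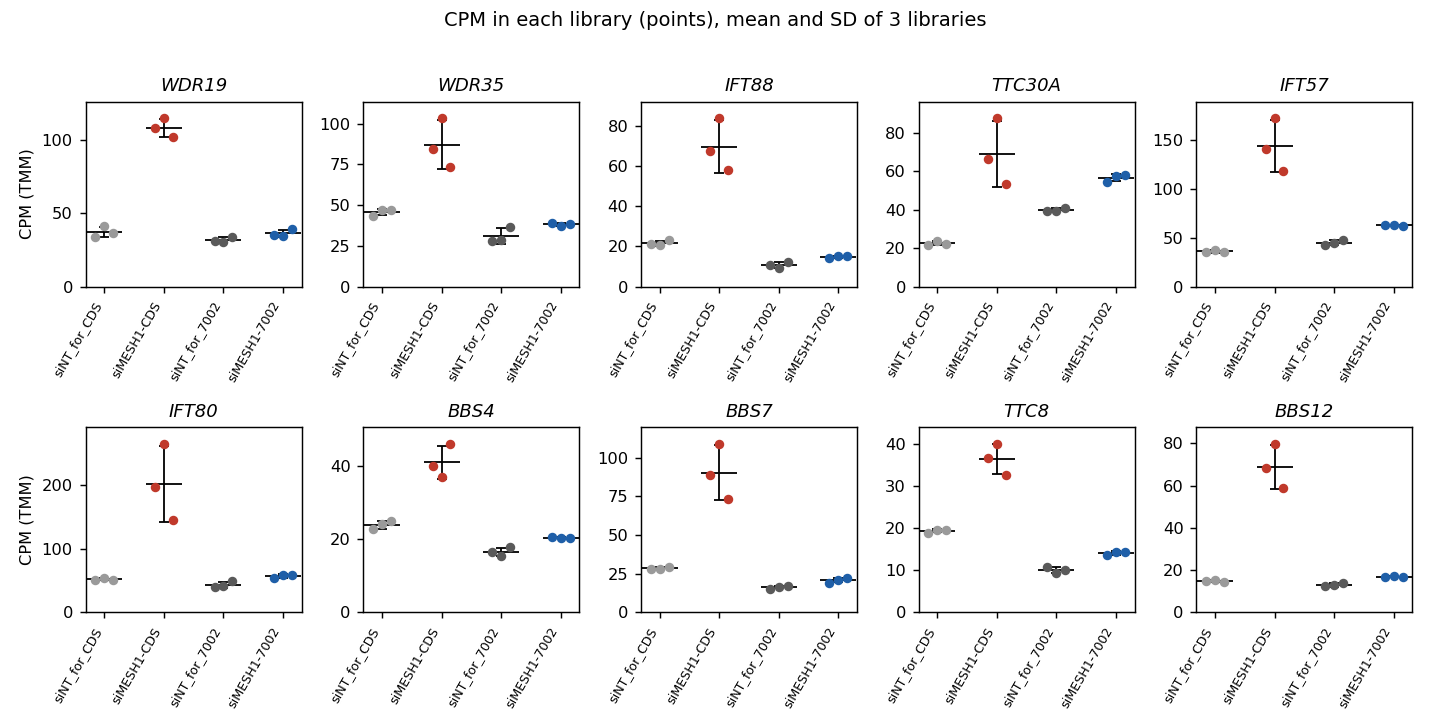
CPM (TMM-scaled, y axis, from 0) of 10 genes called higher with both siRNAs in the 4 groups (x axis). Points are libraries, and bars are the mean and SD of 3 libraries. Each siMESH1 group lies above its own siNT group, by 0.79 to 2.23 on the log2 scale with siMESH1-CDS and by 0.19 to 0.50 with siMESH1-7002.

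The change with siMESH1-CDS followed the GC content of the transcripts. Over the 33 genes Pearson's r between GC content and log2 fold change was −0.68 (Spearman's rho −0.49). With siMESH1-7002 r was −0.36 (rho −0.31). These are descriptions across genes measured in the same libraries. Of the 8 members above 50% GC, 2 were called higher and 3 lower with siMESH1-CDS. Of the 25 at or below 50% GC, 21 were higher and 1 lower. A correction that removed each library's smooth trend of log2 CPM on GC content left 22 members called higher and 2 lower with siMESH1-CDS, where 40.6% of all genes were then called higher and 25.5% lower. It moved the median of all genes from −0.05 to 0.17 and that of the members from 0.97 to 0.83, and r over the members became 0.22.

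Before and after the correction 19 members were called higher with siMESH1-CDS. IFT88 was at 0.91 after it, IFT57 at 1.26, IFT74 at 1.35, BBS12 at 1.51 and BBS4 at 0.48, all still called. WDR35 (0.13), TTC8 (0.12), TTC21B (0.06) and BBIP1 (0.06) were no longer called, and all 4 lay below the 0.17 of the median gene. ARL6, the member of lowest GC content (34.9%), went from 0.62 to −0.28, not called either way. The direction of IFT140, of highest GC content (59.7%), went from −1.60 to 1.27, and that of BBS1 and IFT27 from −0.22 and −1.20 to 1.37 and 1.20. IFT122 (−0.25) and IFT43 (−0.25) were not called after it. TRAF3IP1 (−0.97) and TTC26 (−1.08) were called lower after it, so TRAF3IP1 was lower with and without it.

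With siMESH1-7002 the correction left 21 members higher and 2 lower (TTC21B and BBIP1), where 30% of all genes were called higher and 30.2% lower. CLUAP1 (0.10, adjusted p = 0.0535) and ARL6 (0.20, adjusted p = 0.129) were no longer called. IFT122, IFT140, HSPB11 and BBS2 were called higher in their place, at 0.11 to 0.19. Altogether 13 of the 33 (39.4%) were higher with both siRNAs before and after the correction, against 11.5% of all genes: IFT88, IFT81, IFT52, TTC30A, TTC30B, IFT57, IFT80, IFT20, WDR19, BBS4, BBS7, BBS9 and BBS12.

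**Figure D3:**
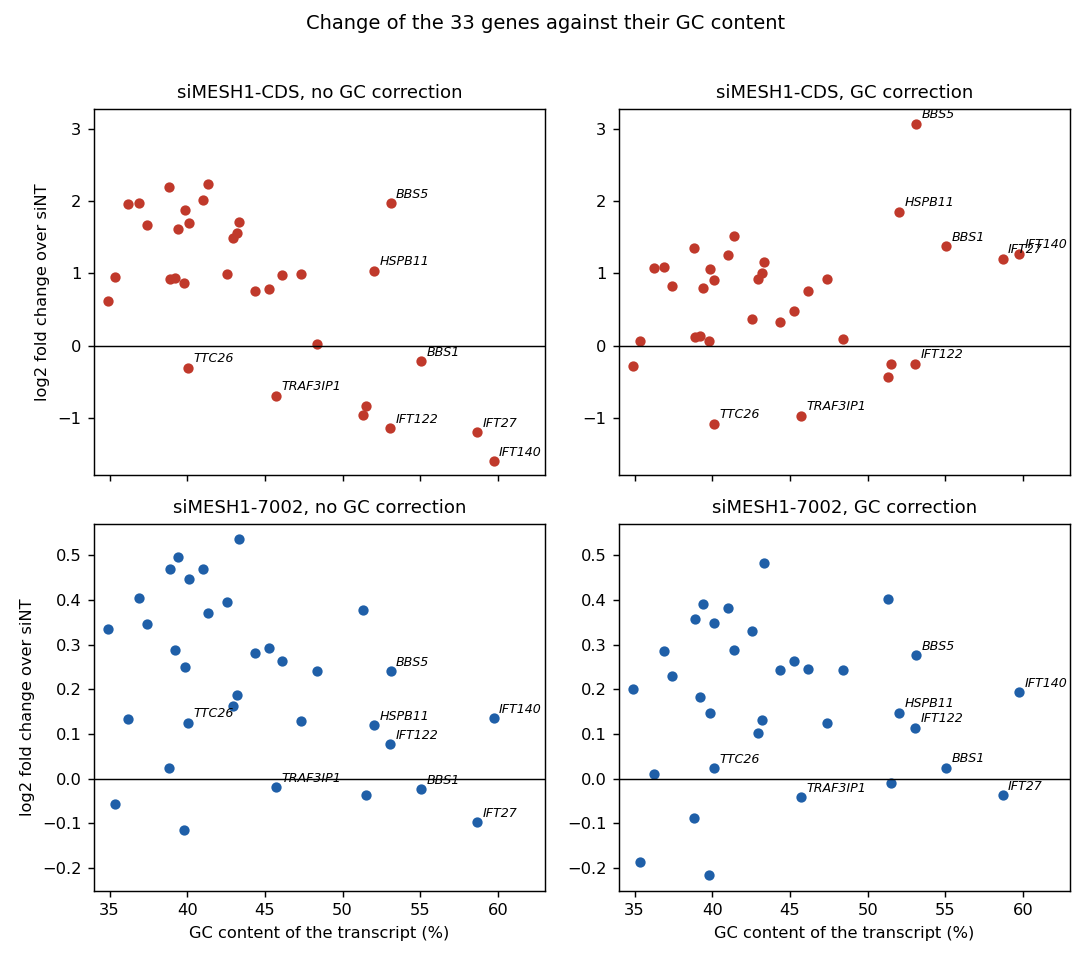
Log2 fold change over siNT (y axis) of the 33 genes against the GC content of their transcript in percent (x axis), with siMESH1-CDS (top) and siMESH1-7002 (bottom), without (left) and with (right) the correction for GC content. The y axes of the rows differ. At top left the points fall from left to right (r = −0.68), and at top right IFT140, BBS1 and IFT27 lie above 0 at 1.27, 1.37 and 1.20.

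Levels were compared between genes as RPKM, which is CPM per kilobase of transcript. In siNT_for_CDS they reached from 0.476 ± 0.0283 for BBS5 to 48.6 ± 1.97 for HSPB11, and in siNT_for_7002 from 0.473 ± 0.147 to 39.9 ± 1.06 for the same genes. The IFT-B core gene IFT88 was at 7.57 ± 0.426 and 3.77 ± 0.562, and BBS4 at 9.64 ± 0.430 and 6.65 ± 0.464. In both experiments BBS5, ARL6, and TTC30B or TTC8 were at the low end. Between experiments the ratio of siNT levels was largest for IFT140, BBS1, IFT27 and IFT43, all above 50% GC. IFT140 was at 8.72 ± 0.325 CPM in siNT_for_CDS and 63.5 ± 4.01 in siNT_for_7002, a ratio of 7.29, and BBS1 at 21.8 ± 0.299 and 76.6 ± 0.857. Over the members r between GC content and this log2 ratio was 0.66. The control groups belong to different experiments and lanes, and a difference in the cells and a difference in library preparation cannot be told apart.

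The 2 changes of a gene were compared in 1 limma model of all 12 libraries with weights for each group. For 26 of the 33 they differed (adjusted p under 0.05). The change was more positive with siMESH1-CDS in 19, against 27.9% of all 14154 genes tested, and more negative in 7, against 36.6%. The difference was largest upward for IFT74 (1.99 ± 0.21, SE) and BBS12 (1.70 ± 0.15), and largest downward for IFT140 (−1.97 ± 0.38) and IFT172 (−1.63 ± 0.30). With the GC correction that of IFT140 was 0.95 (adjusted p = 0.0463), the largest upward was that of BBS5 (2.51), and the largest downward were those of TTC26 (−1.33) and TRAF3IP1 (−1.15). For BBS4 the difference of 0.34 ± 0.16 was not called (adjusted p = 0.0813). After the GC correction 14 were more positive and 5 more negative, where 25.7% and 23.7% of all genes were. That of IFT88 went from 1.08 to 0.33 (adjusted p = 0.0955) and was no longer called. The siRNA and the experiment cannot be told apart.

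Neighbouring parts of the machinery were read from 11 lists, written with earlier results of these data known. Each list count is to be set beside the shares of all genes tested. These were 36.9% called higher and 37.2% lower with siMESH1-CDS, and 26.6% and 26.7% with siMESH1-7002. Some list counts, such as those of the transition zone with siMESH1-7002, lie near these shares and are not read as a response. Of the IFT motors, 7 of 10 tested were higher and 2 lower with siMESH1-CDS, and 3 were higher and 2 lower with siMESH1-7002. The 2 called lower were the same with both siRNAs, and the siMESH1-7002 counts lie near the shares of all genes. The 3 higher with both were DYNC2H1, the heavy chain of dynein-2 (1.08 and 0.74), its light intermediate chain DYNC2LI1 (2.71 and 0.57), and the kinesin-2 motor KIF3A (1.29 and 0.65). After the GC correction DYNC2H1 was at 0.25 with siMESH1-CDS, not called. Of the regulators, 10 of 15 were higher and 2 lower with siMESH1-CDS, and 3 of 14 were higher and 6 lower with siMESH1-7002. LZTFL1, which controls BBSome entry into cilia, rose by 2.04 and 0.62, and ICK, a kinase that acts on IFT at the ciliary tip, by 2.32 and 0.45. These 2 were the only regulators higher with both siRNAs, and 2 others were lower with both.

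Some genes of these lists were called in opposite directions. Among the regulators these included MKKS (0.55 with siMESH1-CDS and −0.21 with siMESH1-7002), RAB3IP (0.60 and −0.22), and TULP3, the IFT-A adaptor (0.95 and −0.19). With siMESH1-CDS after the GC correction MKKS was at −0.28, called lower as with siMESH1-7002, and RAB3IP at −0.16, not called. At the transition zone, the gate at the base of the cilium, 14 of 23 were higher and 5 lower with siMESH1-CDS, and 5 and 5 with siMESH1-7002. TMEM67 rose by 1.35 and 0.70, while TCTN2 (0.30 and −0.50), TCTN3 (0.54 and −0.31) and B9D2 (−4.07 and 0.43) were called in opposite directions. B9D2 was at −1.02 with siMESH1-CDS once corrected for GC content, not called. Of 16 basal body and satellite genes 7 were higher and 5 lower with siMESH1-CDS, and 4 and 6 with siMESH1-7002. FBF1 (−2.55 and −1.11) and CEP72 (−1.79 and −0.46) fell with both, as did AZI1, from 2.75 to 0.0287 CPM with siMESH1-CDS and from 24.4 to 18.7 CPM with siMESH1-7002. C2CD3 (0.36 and −0.17) was called in opposite directions, and with siMESH1-CDS after the GC correction FBF1 was at 0.71, called higher, and CEP72 at −0.18, not called.

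Of the RFX and FOXJ1 factors, several of which drive ciliary genes, 4 of 6 tested were higher and 2 lower with siMESH1-CDS, and 1 and 2 with siMESH1-7002. RFX7 rose by 1.27 and 0.32. RFX5, best known for MHC class II genes, was called in opposite directions (0.32 and −0.80), as was GMNC, which went from 0.0865 to 0.737 CPM with siMESH1-CDS and from 0.597 to 0.113 CPM with siMESH1-7002, all low levels. After the GC correction 4 of the 6 were higher and none lower with siMESH1-CDS. In the Hedgehog pathway, which signals through the cilium, 2 of 6 were higher and 3 lower with siMESH1-CDS, and 5 of 8 higher and 2 lower with siMESH1-7002. GLI3 rose by 0.59 and 0.49. PTCH1, a receptor and target of the pathway, was at −1.12 and 0.70, SMO at −2.14 and 0.28, and SUFU at −1.06 and 0.27, each called in opposite directions. However, SMO and SUFU were at 0.91 and 0.89 with siMESH1-CDS after the GC correction, both called higher as with siMESH1-7002. PTCH1 was then at −0.63, still called lower, and the list had 5 higher and 1 lower. GLI1, a direct target, was tested only with siMESH1-7002, where it fell by 1.42.

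Most genes listed for ciliary disassembly and for division fell with both siRNAs. Of the disassembly list 8 of 10 were lower and 1 higher with siMESH1-CDS, and 7 of 11 lower and 1 higher with siMESH1-7002. AURKA, the kinase that starts disassembly (−1.26 and −1.90 on the log2 scale), PLK1 (−3.45 and −2.48) and NEK2 (−0.65 and −2.18) fell with both, and all 3 also serve mitosis. Of 12 proliferation markers 10 were lower with siMESH1-CDS and 12 with siMESH1-7002, none higher. MKI67 (−1.91 and −2.21), CCNB1 (−0.79 and −2.04) and TOP2A (−0.79 and −2.03) fell with both. The summed level of the 12 markers was 2086 to 2158 CPM in siNT_for_CDS and 904 to 1162 in siMESH1-CDS, and 717 to 739 in siNT_for_7002 and 258 to 264 in siMESH1-7002. The part of this shift in the changes of the IFT and BBSome genes was not tested.

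Of 18 markers of motile cilia, DNAH11, SPAG16 and DNAH5 reached 109, 65.8 and 50.9 CPM and the other 15 no more than 11.5 CPM, with 3 to 6 of the 18 at 0 in a library and DNAI2 and TEKT1 at 0 in all 12. Their summed level was 56.5 to 67.7 CPM in siNT_for_CDS and 128 to 170 in siMESH1-CDS, and 134 to 145 in siNT_for_7002 and 159 to 177 in siMESH1-7002. Of 7 tested with siMESH1-CDS 5 were higher, and of 11 tested with siMESH1-7002 3 were higher and 1 lower. SPAG16 (2.07 and 0.39), DNAH5 (1.68 and 0.39) and DNAH11 (0.58 and 0.29) rose with both. After the GC correction DNAH11 was at 0.17 with siMESH1-CDS, not called, while SPAG16 (1.64) and DNAH5 (1.20) were still called. The part of these genes in the members' changes was not tested. Of the 8 markers of clear cell renal carcinoma none were higher and 6 lower with siMESH1-CDS, and 2 were higher and 3 lower with siMESH1-7002. With the GC correction 4 were higher and 2 lower with siMESH1-CDS. KRT18 (−4.81 and −0.33) fell with both. EPAS1 was at 0.11 with siMESH1-CDS, not called, and rose by 0.55 with siMESH1-7002. VIM was at −0.01, not called, and fell by 0.18. NDUFA4L2, a GC-rich gene, was called in opposite directions (−5.47 and 0.17). With siMESH1-CDS after the GC correction EPAS1 (1.02) and VIM (1.25) were called higher, and KRT18 (−2.275) and NDUFA4L2 (−2.234) were still called lower. EPCAM was the only 1 of 6 markers of other cell types with enough reads to test, and rose by 1.18 with siMESH1-CDS.

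**Figure D4:**
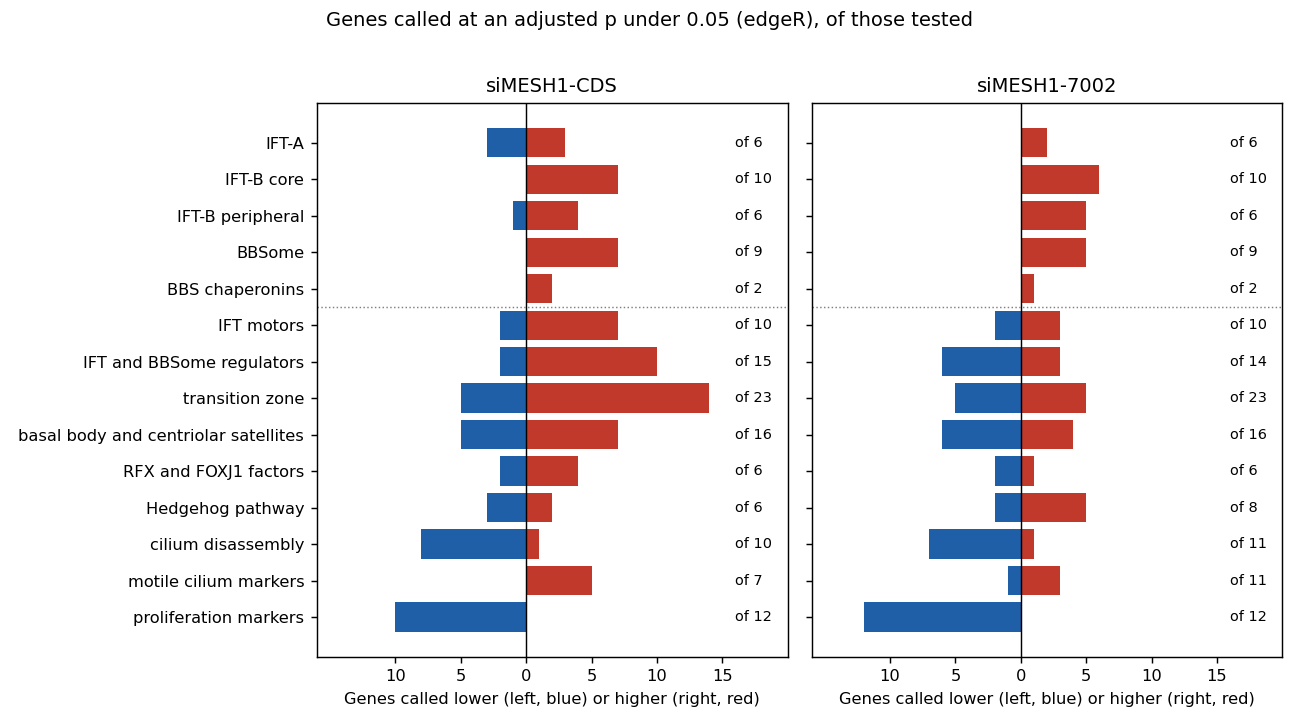
Number of genes called lower (left, blue) or higher (right, red) by edgeR in each role group of the members (above the dotted line) and in the lists of other ciliary and proliferation genes, with the number tested at the right of each bar. In the 5 role groups no gene is called lower with siMESH1-7002, and all 12 proliferation markers are.

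RFX factors bind the X-box, which pairs an arm GTTNCC with the inverted arm GGNAAC. RefSeq promoters of GRCh38.p14, from 250 bases before to 50 after the start, were found for 30 of the 33 members, all but BBS9, TTC30B and WDR35. The arm, on either strand, was present in 26 of the 30 (86.7%) and in 50.3% of 27305 genes. The whole X-box, both arms separated by 0 to 3 bases, was present in 4 of the 30 (13.3%) and in 0.905% of genes. Every X-box also counts as arms. The 4 are shown because they carry the motif whole, with the X-box in capitals and 6 bases on each side, in the direction of transcription.
ARL6, chr3:97764728-97764753, plus strand: gctcctGTTGCCAAGGGAACggtgcc
BBIP1, chr10:110919144-110919170, minus strand: ctcaccGTTACCCGGGGCAACagctga
IFT122, chr3:129440206-129440232, plus strand: atgtacGTTGCCAGGGGTAACgcaggt
TTC30A, chr2:177618721-177618746, minus strand: tgccctGTTGCCGTGGTAACcgcacg

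The genes with a whole X-box differed in their calls. TTC30A was higher with both siRNAs (1.61 and 0.50), ARL6 with siMESH1-7002 (0.33), BBIP1 with siMESH1-CDS (0.95), and IFT122 was lower with siMESH1-CDS (−1.14). After the GC correction the siMESH1-CDS calls of BBIP1 (0.06) and IFT122 (−0.25) and the siMESH1-7002 call of ARL6 (0.20) were lost. A match to these letters is a description and not a site of binding.

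An siRNA can also act on other transcripts through the seed of its guide strand, positions 2 to 8. The target of siMESH1-7002 is shown with the seed site in capitals.
siMESH1-7002: ctgaaggtctcctGCTAACTa
That seed site was in the 3′ untranslated region (GENCODE 29 transcripts) of 1 member, WDR19, which rose by 0.19 with this siRNA. The seed site of siMESH1-CDS, ACATTGT, was in that of 5 members: TTC30A (1.61), WDR35 (0.94), TTC8 (0.92), TRAF3IP1 (−0.69) and IFT140 (−1.60), of which 3 were called higher and 2 lower with siMESH1-CDS. The other 28 members had no such site, and 20 of them were called higher and 2 lower. Of the members with a site, TTC30A (0.79) and TRAF3IP1 (−0.97) kept their siMESH1-CDS calls after the GC correction. IFT140 was then called higher (1.27), and WDR35 (0.13) and TTC8 (0.12) were not called. No share over all genes with or without the site is given here, and the part of the seed in these changes was not tested.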

How the data were processed

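Messenger RNA of RCC4 cells was sequenced in 12 libraries from a stranded kit, in 4 groups by their labels. The submitters' processing notes name FastQC, HISAT2, HTSeq, DESeq2 and the build hg19, with versions not given in the sources used here. Per gene, the deposited values are raw counts from the authors' run of HTSeq, without normalization. Entries that name no gene, 38.9% to 49.3% of a library's total, were left out. The authors' DESeq2 tables hold their own fold changes and p-values and were not used. The labels call the replicates biological but do not say how the cultures were kept apart, so p-values measure the spread between these libraries, and intervals between replicates do not cover other sources of error.

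Counts were tested in each experiment with edgeR 4.0.16 in R 4.3.3 (filterByExpr, TMM, glmQLFit and glmQLFTest), with p-values adjusted by Benjamini and Hochberg over all genes tested and a threshold of 0.05. The difference between the changes used limma 3.58.1 (voomWithQualityWeights by group). GC content and transcript length came from GENCODE release 29, matched for 22288 of 23710 symbols, and the correction was a lowess smooth (span 0.3) of log2 CPM. Its transcripts may not be those the authors counted. On simulated counts for siMESH1-7002 with a coefficient of variation of 0.05, 97% of 200 genes changed by a fold of 2 were recovered among 13481 genes. For siMESH1-CDS with 0.3 it was 11% among 13240, so 2-fold changes can be missed at that spread. The simulation gave every gene the same spread and changed only 200. In the data 36.9% of genes were called higher and 37.2% lower with siMESH1-CDS, so these recovered shares are not the power of the tests reported here.

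The members and gene lists were chosen with earlier results of these data known. Values in every library are given for IFT88, BBS4 and, per role, up to 4 members called in the same direction with both siRNAs, ranked by the smaller change. Where fewer than 2 qualified, the 2 with the smallest p with siMESH1-7002 were taken. From other lists up to 3 genes with the smallest p with siMESH1-7002 and those called in opposite directions are named. Alternatives were DESeq2 1.42.0, scaling by library size or RLE factors, other filters and thresholds, 1 model of 4 groups, a replicate block, corrections for GC content and length, and leaving out each library.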

Additional observations from a re-analysis of the deposited data

Results flagged for a closer look

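The change with siMESH1-CDS differed from that with siMESH1-7002 for 26 of the 33 genes and for HDDC3, by a limma test of the difference itself (adjusted p under 0.05). The siRNA and the experiment cannot be told apart. Values are the log2 change with siMESH1-CDS minus that with siMESH1-7002.

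In the IFT-B complex the difference was 1.99 for IFT74, 1.44 for IFT81, 1.37 for IFT57, 1.37 for IFT80, 1.17 for CLUAP1, 1.08 for IFT88, 1.04 for TTC30B, 0.94 for TTC30A, 0.72 for HSPB11 and 0.56 for IFT20. It was negative for TTC26 (−0.58), TRAF3IP1 (−0.83), IFT27 (−1.58) and IFT172 (−1.63). In the IFT-A complex it was 1.22 for WDR19, 0.81 for TTC21B and 0.48 for WDR35, and −1.02 for IFT43, −1.53 for IFT122 and −1.97 for IFT140. Among BBSome and chaperonin genes it was 1.70 for BBS12, 1.63 for BBS10, 1.52 for BBS5, 1.16 for BBS7, 0.83 for BBIP1 and 0.71 for BBS2.

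After the GC correction, differences were 1.21 for IFT74 and 1.00 for BBS12, still called, and 0.00 for BBIP1 and 0.05 for TTC21B, not called. Those of IFT140 and IFT27 changed sign, to 0.95 and 1.07, both called, and that of WDR35 to −0.29, not called. The differences of IFT88, TTC30A, TTC30B, BBS7, IFT20, IFT43 and IFT122 kept their sign and were no longer called. The difference for HDDC3 was −3.32 (adjusted p = 0.0392) and −1.23 after the correction (adjusted p = 0.389).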

How the results depend on the processing

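With siMESH1-CDS 22 to 24 members were called higher in every fit at an adjusted p of 0.05. The 4 called lower became 7 with scaling by library size, 7 with at least 10 counts in every library, 8 in 1 model of 4 groups, 2 with the GC correction, 2 at an adjusted p under 0.01 and 2 to 7 when each library was left out in turn. The median change of 0.97 was 0.71 with scaling by library size. With siMESH1-7002 the 19 called higher became 7 in 1 model of 4 groups, 2 with a log2 change above about 0.5 and 17 to 23 without single libraries, and the 0 called lower became 2 with the GC correction, 2 with GC and length correction and 0 to 1 without single libraries (1 without siNT_for_7002 replicate 3). Its median of 0.24 was 0.19 with the GC correction, 0.18 with GC and length correction, and 0.21 to 0.26 without single libraries. The count of 26 differing changes was 19 with the GC correction and 19 to 27 without single libraries. These counts do not say which genes they hold, and the cause was not tested.

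Among changes called before or after, directions with siMESH1-CDS reversed with the GC correction for BBS1 (1.37), IFT140 (1.27) and IFT27 (1.20). With GC and length correction they reversed for ARL6 (−0.41), BBS1 (1.33), IFT140 (1.11), IFT27 (1.44), IFT43 (0.076), TTC21B (−0.087), TTC8 (−0.020) and WDR35 (−0.013). With siMESH1-7002 no change called before or after reversed under the alternatives run. Changes not called either way also turned sign: ARL6 (−0.28 with the GC correction) and IFT46 with siMESH1-CDS, and BBS1, IFT74, IFT43, TTC21B and TRAF3IP1 with siMESH1-7002.

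Replicate numbers are not stated to pair the libraries and were not used as pairs in the main fits. Same-numbered deviations correlated at −0.09, 0.33 and 0.19 in experiment 1 and at −0.10, 0.04 and −0.10 in experiment 2. Only siMESH1-CDS replicate 2 matched its own number best. Such correlations cannot decide whether same-numbered libraries share a batch. With a replicate block 23 members were higher and 3 lower with siMESH1-CDS, 19 higher and 0 lower with siMESH1-7002, and 26 differed between the siRNAs. Counting error weighs most on BBS5, at 1.65 CPM in siNT_for_CDS.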
